A study of Mus musculus with 16 samples.

Results

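Interferon-gamma was given to mouse macrophages that were either naive or pretreated, and the subject here is how far pretreatment changed the response at 6 h. For each gene the response of naive cells (6 h minus 0 h) was subtracted from the response of pretreated cells. The members are the 8 arrays that hold these 4 groups, with 2 arrays per group, out of 16 arrays in the series. A negative difference of responses means that a gene rose less, or fell more, in pretreated than in naive cells. The same number can arise in several ways, so each gene was read together with its levels at 0 h and at 6 h.

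All cells were macrophages grown from bone marrow with medium conditioned by L cells, a fibroblast line whose medium supplies the growth factor M-CSF. Every group came from knock-in mice whose histone H3.3 carries an HA tag, so no group is free of the tag. The groups were naive cells at 0 h, naive cells after 6 h of interferon-gamma, pretreated cells at 0 h and pretreated cells after 6 h. The word pretreated rests on the group label, and the earlier agent on a token in the array titles that reads as interferon. The dose, the length of the pretreatment, any rest after it, and the strain and age of the mice are not given in the sources. There were no unstimulated cells at 6 h, so interferon-gamma and 6 h of time and handling cannot be told apart. The labels do not say whether the 2 arrays of a group came from separate cultures or mice, so a p-value covers the spread among these arrays alone, which may be technical. The other 8 arrays of the series, a separate set with its own 0 h arrays and with 3 h arrays, gave further levels and differences. They also entered the estimate of spread that all tests share.

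Interferon-gamma binds a receptor that signals through Janus kinases. The genes it induces often carry DNA elements called GAS, or interferon-stimulated response elements, ISREs, which are bound by factors of the IRF family. In macrophages this programme raises CXCR3-ligand chemokines, GTPases that attack vacuoles holding pathogens, nucleic acid sensors and the machinery of antigen presentation. Earlier exposure to interferon can leave some of these genes expressed above their resting level.

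Levels are log2 intensities, on which a difference of 1 is a doubling or halving, and a level may not be compared between genes. The largest value on any array of the 6 h set lay between 14.30 and 14.37. All 7 macrophage markers measured, which include Csf1r and Adgre1, had mean levels between 11.91 and 13.80, and their summed level lay between 15.99 and 16.09 on every array of the set. No marker of the 9 cell types examined passed the test for a difference of responses. The summed level of B cell markers was 8.999 to 9.15 in naive cells at 6 h and 9.30 to 9.61 in the other 3 groups, and the part of this in the results was not tested. Of the 4 B cell markers measured only 2 had a mean level of at least 6.5, with means from 4.90 to 8.92. Intensities were summed before the log, so the brightest marker weighs most. In such bulk samples fewer responding cells and less RNA per cell cannot be told apart.

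Of 19938 genes, 23 (0.115%) had a lower response in pretreated than in naive cells and 6 (0.0301%) a higher one, by limma with an adjusted p under 0.05, which is the meaning of "passed" and "called" throughout. All 23 rose in naive cells by the test, and the largest difference was that of the chemokine Cxcl9. At an unadjusted p under 0.05 there were 754 lower and 1065 higher. All 29 genes had the same sign in each of the 16 combinations of 1 array per group, which their selection on these same arrays largely fixes. The titles number the arrays so that positions 1 to 4 and positions 5 to 8 each hold all 4 groups. With these half-sets as a block, 141 genes (0.707%) were lower and 161 (0.808%) higher, and these included all 29. A fit of the 6 h set alone, with fewer residual degrees of freedom, called 14 lower and 0 higher genes and kept 12 of the 29. The counts rested strongly on single arrays. Without naive 0 h replicate 1 there were 14 lower and 4 higher genes, and without replicate 2 there were 5 and 0. Without naive 6 h replicate 1 there were 4 and 0, and without replicate 2 there were 98 and 59. Leaving out pretreated 0 h replicate 1 gave 32 and 6, and replicate 2 gave 8 and 1. Either pretreated 6 h array left out gave 4 and 0. Cxcl9, Iigp1, Gm4951 and Rasgrp1 passed whichever array was left out, and Zbp1 and Havcr2 passed in none of these 8 fits.

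**Figure D1:**
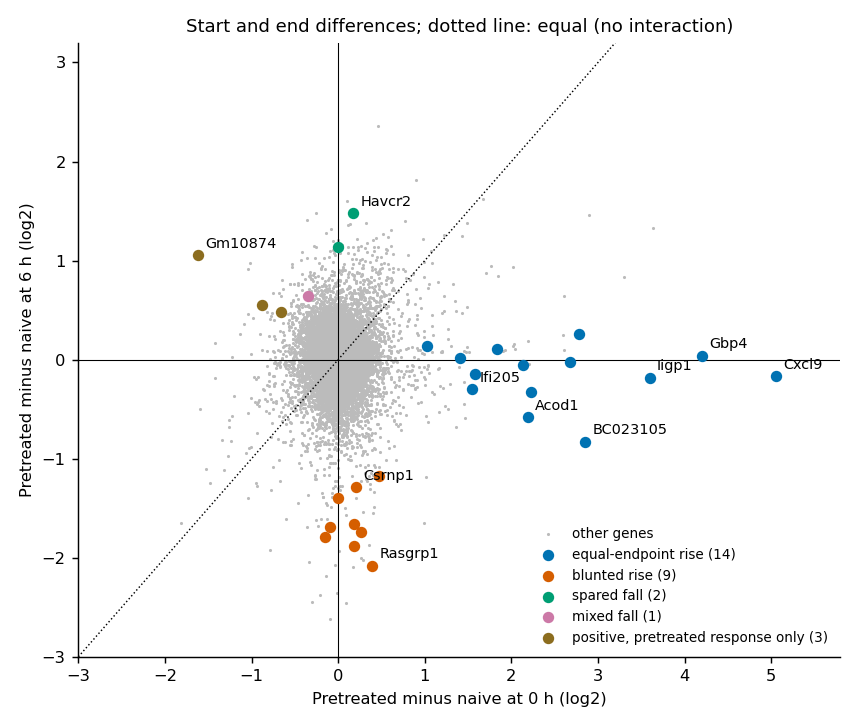
Difference between pretreated and naive cells at 0 h (horizontal, log2) and at 6 h (vertical, log2) for 19938 genes, each a difference of means of 2 arrays. Genes on the dotted line have no difference of responses. The 14 equal-endpoint genes lie right of 0 at 0 h and near 0 at 6 h, and the 9 blunted genes lie near 0 at 0 h and between -2.08 and -1.17 at 6 h.

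The 29 genes were parted by which time point carried the difference. A gene was called an equal-endpoint rise where it rose in naive cells and at least 2/3 of the difference of responses came from a higher level of pretreated cells at 0 h. It was called a blunted rise where at least 2/3 came from a lower level at 6 h. Of the 23 genes with a lower response, 14 were equal-endpoint rises and 9 were blunted rises. The 6 genes with a higher response were 2 spared falls, in which the level at 6 h stayed higher after pretreatment, 1 mixed fall, and 3 genes with a called response in pretreated cells only. These classes describe the genes and carry no test, since the same 8 arrays define them.

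The equal-endpoint genes all started higher in pretreated cells, and none passed for a difference at 6 h. Across the set 45 genes (0.226%) were called higher and 9 (0.0451%) called lower in pretreated cells at 0 h, and all 14 were among the 45, as the class largely requires. Their 0 h difference had a median of 2.21 and ranged from 1.02 to 5.06. At 6 h the difference had a median of -0.10 and ranged from -0.83 to 0.26, while 54 genes (0.271%) in all were called lower and 86 (0.431%) higher. For some of the 14, among them BC023105 and Acod1, both pretreated arrays at 6 h were lower than both naive arrays. A difference that misses the test does not show equal levels. In naive cells, where 1492 genes (7.48%) were called higher at 6 h and 2161 (10.8%) lower, the 14 rose by a median of 4.18. In pretreated cells, where 576 (2.89%) were called higher and 550 (2.76%) lower, their median was 1.64 and 13 were called higher. Their 6 h group means lay between 10.33 and 13.67, below the array maximum near 14.3, and the part of a ceiling of the scale was not tested.

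Promoter sequence bears on these genes because such elements often lie there. RefSeq windows of the 250 bases before the start, on build GRCm38.p6, were matched for 21 of the 29 genes, 8 of them equal-endpoint and 9 blunted, with the first listed start where a gene has several. The letters searched on both strands were TTCNNNGAA for GAS and GAAANNGAA for the core of an ISRE. For the NF-kB site they were GGGRNNYYCC, where R is A or G, Y is C or T and N is any letter. Only exact matches were counted, and matches of different motifs may overlap. The ISRE core was in 5 of the 8 equal-endpoint windows and in 0 of the 9 blunted ones, against 7.13% of 32851 windows of all genes. GAS letters were in 1 of the 8 and in 3 of the 9, against 7.02% of all windows. The 8 windows are not all separate sequence. Those of Tap1 and Psmb9, which hold no match, overlap on opposite strands. The ISRE cores of Ifi205 and Ifi206 are followed by the same short run of letters. The NF-kB letters were in none of the 21, against 7.25%, and sites that depart from these letters were not searched. A match is a description of letters, and no match says only that these letters are not in this window.

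The chosen windows are those of Cxcl9 (chr5:92328080-92328329, minus strand), Gm12250 (chr11:58183593-58183842, plus strand), Ifi205 (chr1:174031756-174032005, minus strand) and Ifi206 (chr1:173491319-173491568, minus strand) from the equal-endpoint class, and of Rasgrp1 (chr2:117342878-117343127, minus strand) and Fas (chr19:34290409-34290658, plus strand) from the blunted class. They were picked from the windows that hold matches, given in capitals, and each runs 5′ to 3′ toward the gene. Not printed are 2 other windows with a match. Slamf8 has an ISRE core 14 bases before the start, and 4930523C07Rik has GAS letters 182 bases before it.
Cxcl9: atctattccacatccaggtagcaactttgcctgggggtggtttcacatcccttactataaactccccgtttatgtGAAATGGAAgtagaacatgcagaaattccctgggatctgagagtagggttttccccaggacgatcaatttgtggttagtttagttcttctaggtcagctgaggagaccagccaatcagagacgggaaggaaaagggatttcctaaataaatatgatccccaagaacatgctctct
Gm12250: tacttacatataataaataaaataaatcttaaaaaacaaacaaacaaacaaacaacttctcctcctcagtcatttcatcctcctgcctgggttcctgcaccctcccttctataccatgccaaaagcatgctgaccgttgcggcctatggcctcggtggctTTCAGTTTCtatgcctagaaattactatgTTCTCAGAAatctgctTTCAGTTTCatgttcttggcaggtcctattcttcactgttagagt
Ifi205: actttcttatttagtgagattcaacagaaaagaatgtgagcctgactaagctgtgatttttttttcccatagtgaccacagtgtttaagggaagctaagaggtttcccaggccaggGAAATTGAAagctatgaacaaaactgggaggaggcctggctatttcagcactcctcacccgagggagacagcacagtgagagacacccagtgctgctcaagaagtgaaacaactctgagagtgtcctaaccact
Ifi206: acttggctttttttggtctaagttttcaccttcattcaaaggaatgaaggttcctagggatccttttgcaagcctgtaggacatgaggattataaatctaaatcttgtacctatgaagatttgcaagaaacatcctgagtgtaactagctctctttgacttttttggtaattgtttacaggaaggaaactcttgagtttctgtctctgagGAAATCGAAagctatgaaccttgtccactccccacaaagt
Rasgrp1: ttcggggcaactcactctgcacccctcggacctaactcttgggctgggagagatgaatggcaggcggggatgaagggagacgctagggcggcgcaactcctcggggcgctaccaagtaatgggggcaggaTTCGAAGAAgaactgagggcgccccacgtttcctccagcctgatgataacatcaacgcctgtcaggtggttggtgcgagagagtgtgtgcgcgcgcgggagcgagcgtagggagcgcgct
Fas: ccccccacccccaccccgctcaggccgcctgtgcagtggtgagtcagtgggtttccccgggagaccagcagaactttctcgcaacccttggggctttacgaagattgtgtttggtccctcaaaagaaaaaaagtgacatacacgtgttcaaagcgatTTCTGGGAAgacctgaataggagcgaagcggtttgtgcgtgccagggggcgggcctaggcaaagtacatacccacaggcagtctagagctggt
The ISRE core of Cxcl9 begins 175 bases before the start. Gm12250 holds ISRE cores 90 and 45 bases and GAS letters 61 bases before the start. The GAS letters of Rasgrp1 begin 120 bases and those of Fas 93 bases before the start.

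Cxcl9, a chemokine that draws T cells through CXCR3, had the largest difference. Its level in naive cells was 6.80 and 6.29 at 0 h and 13.64 and 13.70 at 6 h. In pretreated cells it was 11.49 and 11.72 at 0 h and 13.45 and 13.56 at 6 h. The pretreated arrays at 0 h thus stood far above both naive arrays, whereas at 6 h all 4 arrays lay close together, with the naive arrays slightly higher. The naive rise of 139-fold stood against a rise of 3.73-fold after pretreatment. The difference of responses was -5.22 ± 0.24 (SE; adjusted p = 6.65e-07), with -4.87 and -5.58 in the half-sets.

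The interferon-inducible GTPases attack the vacuoles in which intracellular pathogens live. Of 11 measured genes on this list, 4 had a called lower response (Gbp4, Iigp1, Gm4951 and Gm12250, which is also known as Irgb10), all 11 had a negative sign, and 6 passed with the half-set block. Their median difference of responses was -1.69, against -0.01 over all genes, of which 51.5% were negative. The list's median difference was 1.59 at 0 h and -0.11 at 6 h. Features shared by several symbols were left out of this list. Over all features, some of those also passed, such as Tgtp1 with Tgtp2 (-2.35 and -2.34) and Ifi47 with Olfr56 (-1.45).

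Iigp1, an immunity-related GTPase, was at 7.72 and 7.63 in naive cells at 0 h and at 13.03 and 13.26 at 6 h. In pretreated cells it was at 10.71 and 11.84 at 0 h and at 12.89 and 13.04 at 6 h. The pretreated 0 h arrays were both above the naive ones but more than a doubling apart from each other. Its rise was 44.4-fold in naive and 3.24-fold in pretreated cells, a difference of -3.78 ± 0.38 (adjusted p = 0.00214), with -3.12 and -4.43 in the half-sets.

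Gbp4, a guanylate-binding protein, was at 6.97 and 5.85 in naive cells at 0 h, 12.99 and 12.95 at 6 h, 9.82 and 11.41 at 0 h in pretreated cells and 13.04 and 12.98 at 6 h. The 6 h arrays of both groups lay within a narrow range, and the spread was in the 0 h arrays. Gbp4 differed in response by -4.16 ± 0.59 (adjusted p = 0.0194), and the half-sets gave -2.80 and -5.52. Gm4951, also an immunity-related GTPase gene, had -2.70 ± 0.29 (adjusted p = 0.00344) and Gm12250 had -1.73 ± 0.22 (adjusted p = 0.0108). BC023105, which RefSeq lists as a pseudogene, had -3.68 ± 0.53 (adjusted p = 0.0200). Iigp1, BC023105 and Gm4951 lie within 10 genes of each other, and members of these families, like Ifi205 and Ifi206 of the p200 family, are alike in sequence, so signal shared between their probes is possible and their values are uncertain as separate measurements.

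Antiviral sensing was represented by Zbp1, a sensor of Z-form nucleic acids that can trigger necroptosis, and by Ifi205 and Ifi206 of the p200 family. Zbp1 was at 9.59 and 9.90 in naive cells at 0 h, 12.63 and 12.79 at 6 h, 11.54 and 11.63 at 0 h in pretreated cells and 12.79 and 12.85 at 6 h. It differed in response by -1.74 ± 0.29 (adjusted p = 0.0490, and between 0.0521 and 0.214 with 1 array left out). Ifi205 differed by -1.84 ± 0.23 (adjusted p = 0.0108) and Ifi206 by -2.20 ± 0.35 (adjusted p = 0.0345). Ifi206 was the member of the class whose rise in pretreated cells did not pass (0.81 ± 0.25, adjusted p = 0.0950). Of 36 measured type I interferon-stimulated antiviral genes, Zbp1 alone was called and 2 passed with the block. The median difference of that list was -0.66, and 34 of the 36 were negative, against 51.5% of all genes.

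Antigen presentation on MHC class I gave 2 called genes of 16 measured, with 7 passing under the block. Tap1, which carries peptides into the endoplasmic reticulum, was at 10.58 and 10.74 in naive cells at 0 h and 12.80 and 12.68 at 6 h. After pretreatment it was at 12.02 and 12.11 at 0 h and 12.80 and 12.72 at 6 h. The 6 h arrays of the groups overlapped, and the difference of responses was -1.38 ± 0.17 (adjusted p = 0.0102). Psmb9, a catalytic subunit of the immunoproteasome and the direct neighbour of Tap1 on chromosome 17, had -0.89 ± 0.14 (adjusted p = 0.0320). The 16 measured genes had a median of -0.78 and all were negative, against 51.5% of all genes. Of the 16, 8 were called higher at 0 h in pretreated cells, against 0.226% of all genes, and none was called different at 6 h. The list has 21 genes, and the heavy chain genes H2-K1, H2-D1, H2-Q6, H2-Q7 and H2-T23 were not among those measured.

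MHC class II genes, which present peptides to helper T cells, showed a wide spread. None of 11 measured was called, and 3 passed with the block. H2-Ab1 was at 9.56 and 8.47 in naive cells at 0 h, 12.49 and 11.38 at 6 h, 12.44 and 12.19 at 0 h in pretreated cells and 13.01 and 12.54 at 6 h. Replicates of naive cells were about a doubling apart at both times, and the difference of -2.47 ± 1.28 did not pass (adjusted p = 0.629), although it passed with the block (adjusted p = 0.0236), which leaves out the shift that arrays of a half-set share.

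Among genes of the activated macrophage, Acod1 and Slamf8 belonged to the equal-endpoint class. Acod1 makes itaconate, an antimicrobial metabolite, and Slamf8 is a surface receptor of the SLAM family. Acod1 was at 9.46 and 8.72 in naive cells at 0 h, 13.67 and 13.48 at 6 h, 11.10 and 11.46 at 0 h in pretreated cells and 13.10 and 12.89 at 6 h. Its 6 h level was lower in both pretreated arrays than in both naive arrays, by 0.58 ± 0.28 in the mean, a difference that did not pass. Responses differed by -2.77 ± 0.39 for Acod1 (adjusted p = 0.0194) and by -2.53 ± 0.43 for Slamf8 (adjusted p = 0.0496). Cfb, factor B of the alternative complement pathway, had -2.55 ± 0.37 (adjusted p = 0.0204).

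**Figure D2:**
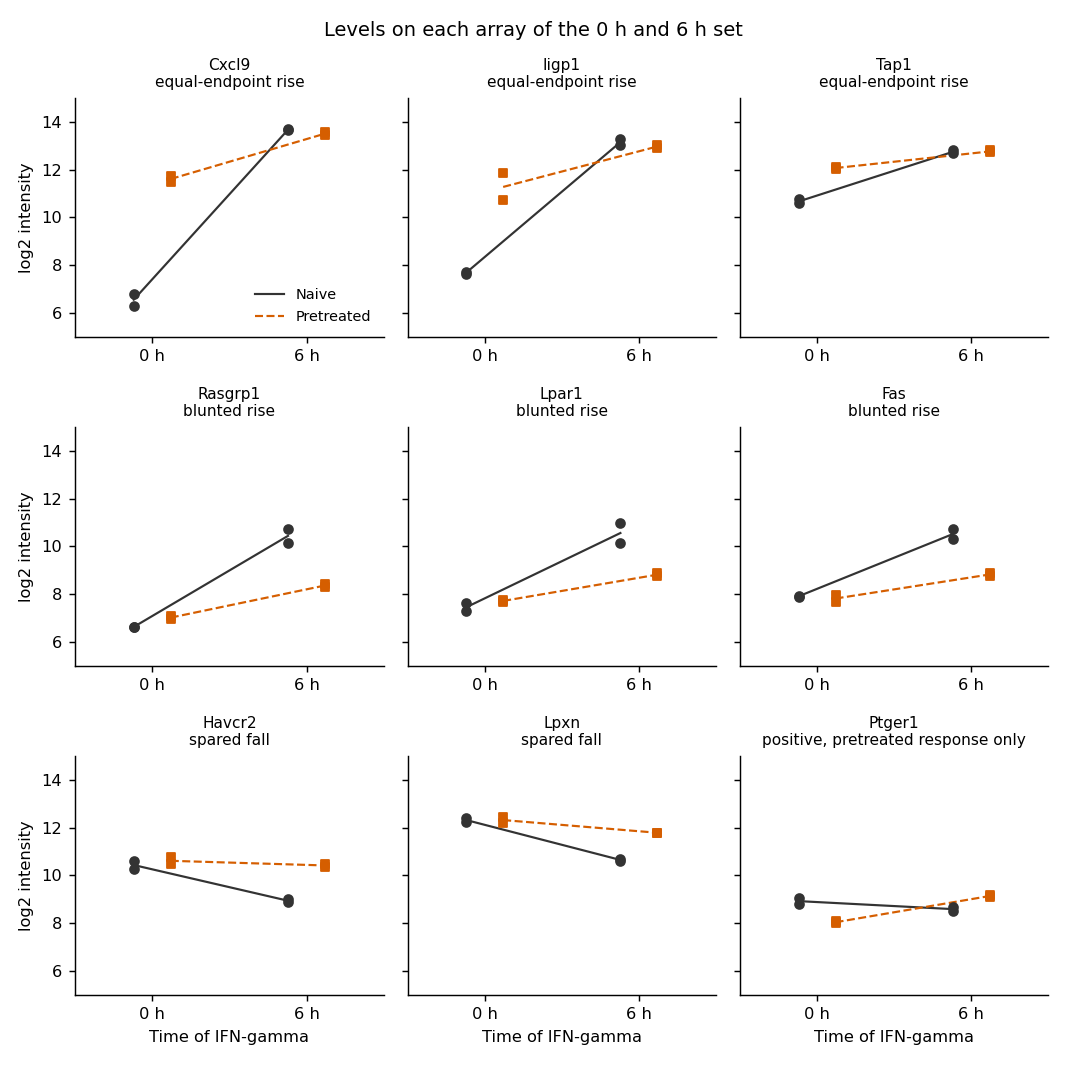
Level (log2 intensity, vertical) at 0 h and 6 h for 3 equal-endpoint genes (top), 3 blunted genes (middle) and 3 genes with a higher response after pretreatment (bottom). Points are single arrays, 2 per group, and lines join group means. The pretreated line starts high and meets the naive line for Cxcl9, Iigp1 and Tap1, and stays below it at 6 h for Rasgrp1, Lpar1 and Fas.

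The levels of the separate 3 h set did not enter the differences that chose these genes, although its arrays entered the shared estimate of spread. It gave differences of the same sign for all 14. Of all genes 88 (0.441%) were called higher in pretreated cells at 0 h in that set, and they included 13 of the 14. The exception was Cfb, at 1.26 ± 0.26 (adjusted p = 0.0776). The 0 h difference of Cxcl9 was 6.13 ± 0.17 in that set. The difference between sets was called for 1 gene of all (0.00502%), the equal-endpoint gene Ifi205, whose 0 h difference was 1.54 in the 6 h set and 3.54 in the 3 h set. At 3 h, 16 genes (0.0802%) had a called lower response in pretreated cells, and 10 of the 14 were among them. The 3 h difference of responses was -6.07 ± 0.24 for Cxcl9, -4.48 ± 0.38 for Iigp1 and -1.47 ± 0.17 for Tap1. For Cfb it was -0.61 ± 0.37 (adjusted p = 1), where the naive rise at 3 h was 1.59 against 3.87 at 6 h.

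**Figure D3:**
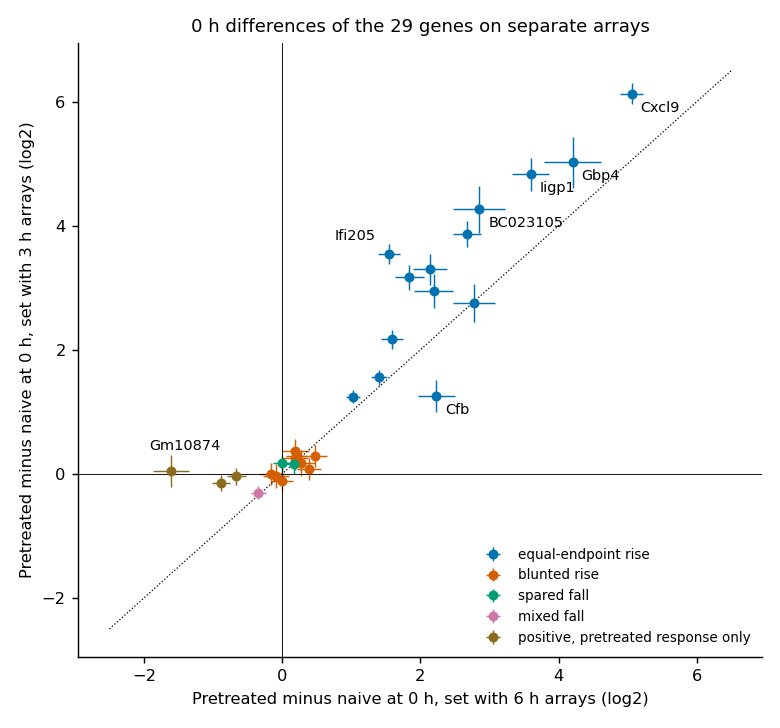
Pretreated minus naive level at 0 h (log2) of the 29 genes in the 6 h set (horizontal) and on the separate arrays of the 3 h set (vertical), with standard errors. The dotted line marks equal values. Equal-endpoint genes lie between 1.24 and 6.13 on the vertical axis, blunted genes between -0.12 and 0.36, and Gm10874 lies at -1.61 and 0.04.

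The blunted genes ended lower after pretreatment, and none passed for a difference at 0 h in either set (range -0.16 to 0.47 in the 6 h set and -0.12 to 0.36 in the 3 h set). For some of the 9 the 0 h arrays of the 6 h set nevertheless did not overlap, and Stx11 had the largest 0 h difference of the 9, at 0.47 ± 0.17. At 6 h all 9 were called lower in pretreated cells, by 1.17 to 2.08, which the class largely requires. They rose by a median of 2.82 in naive and 1.01 in pretreated cells, and 7 of the 9 still rose by the test after pretreatment. The class holds Rasgrp1, Lpar1, Il18rap, Fas, Stx11, Trim13, the complement protease gene C1s1, the nuclear protein gene Csrnp1 and 4930523C07Rik.

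Rasgrp1 encodes an exchange factor that activates Ras downstream of diacylglycerol. Naive cells had levels of 6.64 and 6.61 at 0 h and 10.72 and 10.16 at 6 h. Pretreated cells had levels of 6.96 and 7.07 at 0 h and 8.31 and 8.41 at 6 h. Both pretreated arrays thus stood slightly above the naive ones at 0 h and far below them at 6 h. The rise was 14.1-fold in naive and 2.54-fold in pretreated cells, and the difference of responses was -2.47 ± 0.25 (adjusted p = 0.00214), with -2.73 and -2.21 in the half-sets.

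Lpar1, a receptor for lysophosphatidic acid, was at 7.61 and 7.29 in naive cells at 0 h, 10.96 and 10.16 at 6 h, 7.67 and 7.75 at 0 h in pretreated cells and 8.77 and 8.86 at 6 h. The 6 h groups were clearly apart although the naive arrays differed from each other. Its difference of responses was -2.01 ± 0.30 (adjusted p = 0.0231). Il18rap, the accessory chain of the interleukin-18 receptor, rose 9.63-fold in naive and 2.68-fold in pretreated cells, a difference of -1.84 ± 0.26 (adjusted p = 0.0194).

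The death receptor gene Fas was at 7.89 and 7.92 in naive cells at 0 h, 10.71 and 10.32 at 6 h, 7.67 and 7.95 at 0 h in pretreated cells and 8.76 and 8.89 at 6 h. The 0 h arrays overlapped and the 6 h arrays did not. Fas differed in response by -1.60 ± 0.27 (adjusted p = 0.0481). Stx11, a SNARE protein of granule release, differed by -1.65 ± 0.25 (adjusted p = 0.0231). C1s1, a protease gene of the classical complement pathway, differed by -2.07 ± 0.28 (adjusted p = 0.0141) from a dim start of 4.82 and 5.08 in naive cells.

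Trim13, an E3 ubiquitin ligase of the endoplasmic reticulum, rose in naive cells alone by the test: it was at 9.32 and 9.12 in naive cells at 0 h and 10.65 and 10.36 at 6 h, but at 9.03 and 9.10 at 0 h in pretreated cells and 8.56 and 8.87 at 6 h. Both pretreated arrays at 6 h were below every other array. Trim13 differed in response by -1.64 ± 0.25 (adjusted p = 0.0268). The pretreated response itself, -0.35 ± 0.18, did not pass. Csrnp1 differed by -1.49 ± 0.21 (adjusted p = 0.0194) and 4930523C07Rik by -1.40 ± 0.23 (adjusted p = 0.0383), and the pretreated rise of the latter (0.36 ± 0.16) did not pass either.

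At 3 h on the separate arrays the blunted genes stood otherwise. Their 3 h differences of responses ranged from -0.71 to 0.01, with a median of -0.29, and 0 of 9 were called. In that set 671 genes (3.37%) were called higher in naive cells at 3 h and 417 (2.09%) lower, and 7 of the 9 blunted genes and all 14 equal-endpoint genes were among the 671. Rasgrp1 rose by 1.43 at 3 h in naive cells with a difference of responses of -0.02 ± 0.25. Whether the 6 h difference exceeded the 3 h one was tested as a contrast over both sets, and by limma no gene of all passed, with 192 negative and 426 positive at an unadjusted p under 0.05. Rasgrp1 came nearest among the 29, at -2.45 ± 0.35 (unadjusted p = 1.16e-05, adjusted p = 0.232). A change of the blunting between 3 h and 6 h was therefore not shown for any single gene. Time and array set cannot be told apart in this contrast. The 9 genes were also chosen by their 6 h differences and not by their 3 h ones.

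**Figure D4:**
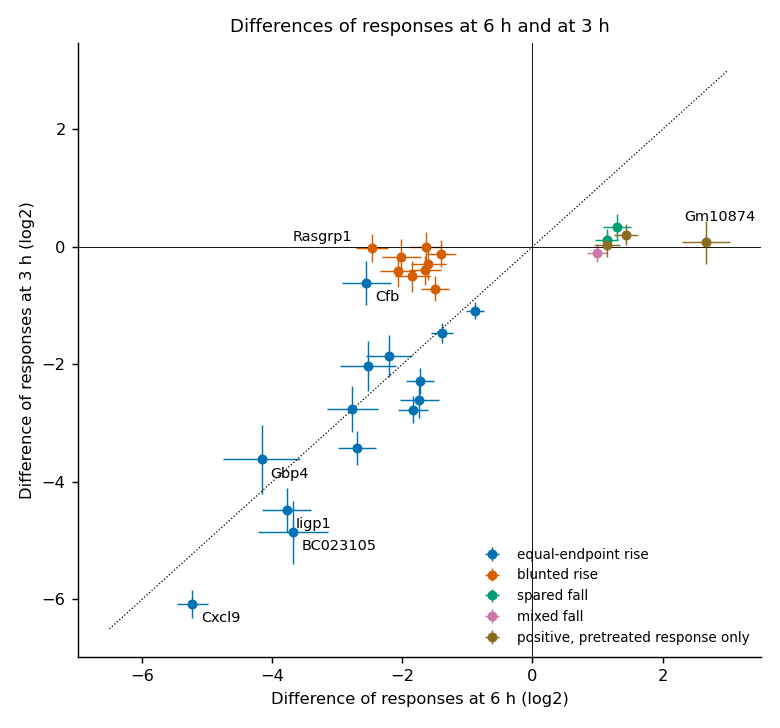
Difference of responses of the 29 genes at 6 h (horizontal, log2) and at 3 h on separate arrays (vertical, log2), with standard errors. The dotted line marks equal values. Equal-endpoint genes lie on either side of it, between -6.07 and -0.61 on the vertical axis, with Cfb farthest from the line. On that axis blunted genes lie between -0.71 and 0.01, and genes with a positive difference at 6 h between -0.11 and 0.33.

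The 2 spared falls were genes that dropped in naive cells and dropped less after pretreatment. Havcr2, the inhibitory receptor Tim-3, was at 10.60 and 10.28 in naive cells at 0 h and 8.999 and 8.88 at 6 h. In pretreated cells it was at 10.46 and 10.77 at 0 h and 10.36 and 10.48 at 6 h. Only naive cells at 6 h stood apart from the rest. The difference of responses was 1.30 ± 0.22 (adjusted p = 0.0490), and the pretreated response of -0.19 ± 0.16 did not pass. Havcr2 lost the call with any 1 array left out (adjusted p between 0.0521 and 0.298), in the 6 h set alone (0.140), with array weights (0.0532) and over all features (0.0704). Lpxn, the adhesion adaptor leupaxin, was at 12.39 and 12.26, then 10.70 and 10.60 in naive cells, and at 12.46 and 12.18, then 11.79 and 11.79 in pretreated cells. It fell in both, by 1.67 in naive and 0.53 in pretreated cells, a difference of 1.14 ± 0.18 (adjusted p = 0.0275). Nt5dc2, a gene of the nucleotidase domain family, fell by 2.47 in naive and 1.48 in pretreated cells, with a lower start and a higher end after pretreatment (difference of responses 0.99 ± 0.15, adjusted p = 0.0275).

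The other 3 genes with a higher response did not respond by the test in naive cells. Ptger1, a receptor for prostaglandin E, was at 8.78 and 9.07 in naive cells at 0 h, 8.66 and 8.52 at 6 h, 7.99 and 8.09 at 0 h in pretreated cells and 9.08 and 9.20 at 6 h. The pretreated 0 h arrays were below every other array. Its difference of responses was 1.43 ± 0.18 (adjusted p = 0.0108). Gm10874, a long non-coding RNA, had 2.67 ± 0.37 (adjusted p = 0.0180), and 4930404N11Rik had 1.15 ± 0.20 (adjusted p = 0.0496). For these 3 the low pretreated start of the 6 h set (-1.61 to -0.66) was not seen in the 3 h set, where the 0 h difference ranged from -0.15 to 0.04. Over all 35557 features of the array, 14 with no gene symbol also passed with a positive difference (1.15 to 3.02), with 0 h differences of -2.26 to -0.95 in the 6 h set and -0.34 to 0.18 in the 3 h set. Of these 14, 10 have feature numbers below the lowest annotated one. The pretreated 0 h arrays of the 6 h set were also the pair least alike, with a median absolute difference of 0.213 between replicates against 0.125 to 0.129 in the other 3 groups of the set. In the 3 h set the pretreated pairs were nearly as unlike, at 0.196 at 0 h and 0.204 at 3 h. What part the pretreated 0 h arrays of the 6 h set have in the 3 genes was not tested.

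The threshold itself parts genes with much the same values. Just inside it stood Zbp1 (-1.74), Slamf8 (-2.53) and 4930404N11Rik (1.15). Just outside stood Vcan (-1.16), Tprn (0.90) and Arhgap19 (1.40), with adjusted p-values of 0.0517, 0.0529 and 0.0603. All 3 passed with the half-set block, at 0.0211, 0.0133 and 0.00514.

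Groups of genes were also chosen by the contrasts of the 3 h set, with the same threshold and the same shared estimate of spread, and read on the 6 h arrays without regard to the 6 h call. The 671 genes that rose in naive cells at 3 h had a median difference of responses of -0.44 at 6 h. Of them 84.9% were negative and 21 (3.13%) were called lower, whereas over all genes the median was -0.01 and 51.5% were negative. Of the 671, 80 were also called higher in pretreated cells at 0 h in the 3 h set. Their median was -0.96, all 80 were negative and 13 were called, with a median difference of 0.99 at 0 h and -0.04 at 6 h. The other 591 had a median of -0.36 with 8 called, and a median difference of 0.11 at 0 h and -0.21 at 6 h. The 417 genes that fell in naive cells at 3 h had a median of 0.37, with 15.3% negative and 2 called higher. In both groups most signs were those of a smaller response after pretreatment, while few single genes passed.

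**Figure D5:**
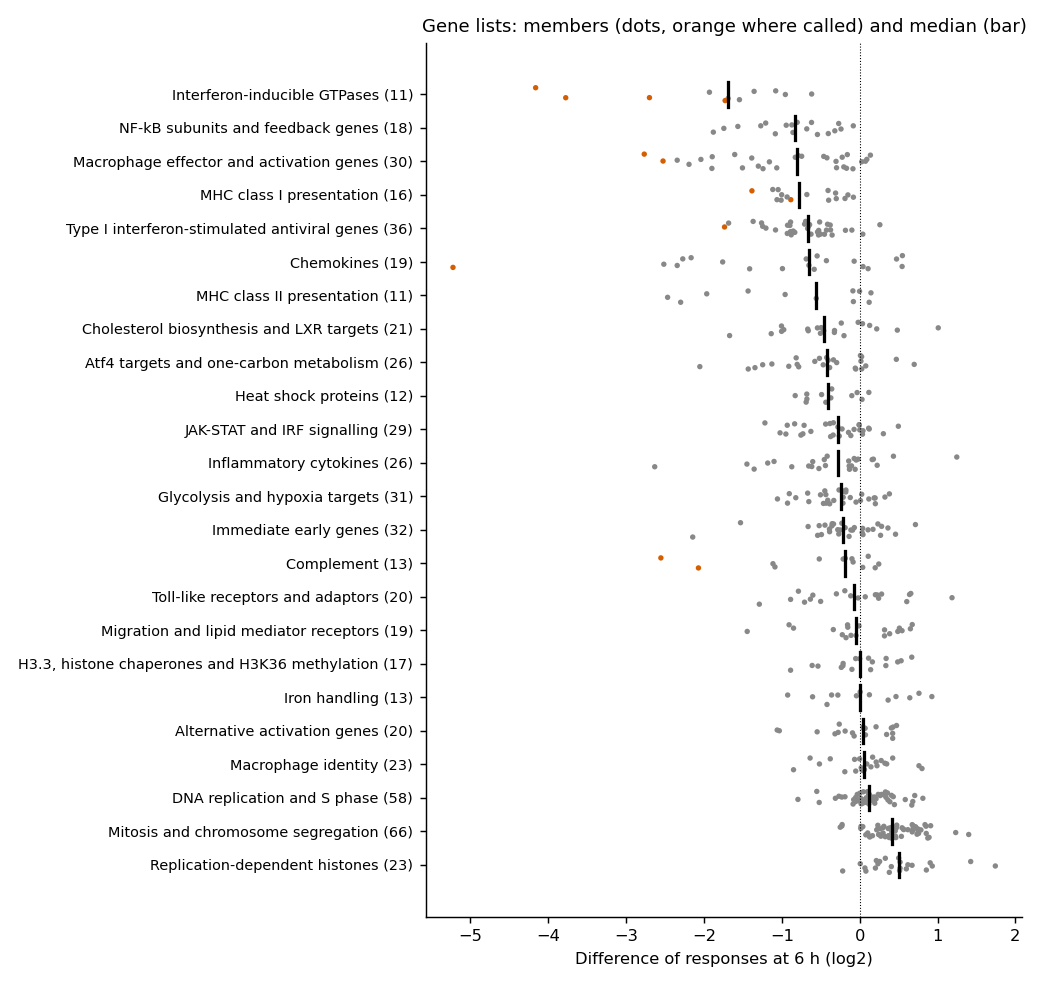
Difference of responses at 6 h (log2) for the measured members of 24 gene lists, with the number measured in brackets. Dots are genes, orange where called, and bars are list medians. Medians run from -1.69 for interferon-inducible GTPases to 0.50 for replication-dependent histones, and called genes lie on 6 of the lists.

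Among the chemokines none of the other 18 measured besides Cxcl9 was called. Of the 19, 14 had a negative sign, against 51.5% of all genes, and 5 passed with the block. Ccl5 was at 10.08 and 9.49 in naive cells at 0 h, 13.12 and 12.05 at 6 h, 12.72 and 12.06 at 0 h in pretreated cells and 13.05 and 12.31 at 6 h. It stood higher at 0 h by 2.61 (adjusted p = 0.0144) and reached the same range at 6 h. The difference of responses was -2.52 ± 0.56 (adjusted p = 0.147, and 0.000347 with the block). Ccl8 had a like shape at -2.34 ± 0.44 (adjusted p = 0.0738). Cxcl10, like Cxcl9 a CXCR3 ligand, had 0 h and 6 h differences of 1.27 and -0.49, neither of which passed, and a difference of responses of -1.76 ± 0.39 (adjusted p = 0.147). Cxcl11, the other CXCR3 ligand, was at 7.09 and 7.11 in naive cells at 0 h, 12.33 and 11.09 at 6 h, 7.55 and 7.18 at 0 h in pretreated cells and 10.12 and 9.29 at 6 h. Its groups overlapped in no array at 6 h and were near each other at 0 h, with a 6 h difference of -2.01 (adjusted p = 0.0224) and a difference of responses of -2.27 ± 0.46 (adjusted p = 0.104).

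Genes of NF-kB, the transcription factor of inflammatory signalling, and of its feedback inhibitors had the pattern of the blunted class in sign. All 18 measured were negative with a median of -0.83, none was called and 4 passed with the block. Over all genes 51.5% were negative. The median difference of the 18 was 0.00 at 0 h and -0.80 at 6 h, where 2 were called lower, against 0.271% of all genes. By the test 12 of the 18 rose in naive cells and 1 in pretreated cells. Over all genes these calls also dropped, from 7.48% in naive to 2.89% in pretreated cells. Nfkbia, which encodes the inhibitor that holds NF-kB in the cytoplasm, was at 11.56 and 11.24 in naive cells at 0 h, 12.97 and 12.66 at 6 h, 11.32 and 11.34 at 0 h in pretreated cells and 11.58 and 11.36 at 6 h. Naive cells at 6 h stood above all other arrays. The 6 h difference was -1.34 (adjusted p = 0.0313) and the difference of responses -1.27 ± 0.34 (adjusted p = 0.219, and 0.0491 with the block). Tnf, the inflammatory cytokine, had a large but unsteady difference of -2.63 ± 0.92 (adjusted p = 0.347), with naive 0 h levels of 9.19 and 7.79. Of 26 inflammatory cytokines none was called and the median was -0.28.

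Of 30 macrophage effector and activation genes only Acod1 and Slamf8 were called, and 10 passed with the block. The list median was -0.81. Clec4e, a lectin receptor for mycobacterial glycolipid, was at 10.69 and 10.42 in naive cells at 0 h, 12.63 and 11.43 at 6 h, 10.54 and 10.55 at 0 h in pretreated cells and 10.03 and 9.32 at 6 h. Its 6 h groups did not overlap (difference -2.36, adjusted p = 0.0129), and its difference of responses was -2.34 ± 0.47 (adjusted p = 0.0970). Ptger4, another prostaglandin E receptor, had a 6 h difference of -1.68 (adjusted p = 0.0136) and a difference of responses of -1.45 ± 0.35 (adjusted p = 0.171). Complement had Cfb and C1s1 called among 13 measured, a median of -0.18 and 4 passing with the block, among them C1ra at -1.09 ± 0.20 (adjusted p = 0.0729).

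In the signalling pathway itself, none of 29 genes of JAK-STAT and IRF signalling was called, 1 passed with the block, and the median was -0.28. Socs1, the feedback inhibitor of the receptor's kinases, was at 7.91 and 7.80 in naive cells at 0 h, 11.42 and 11.41 at 6 h, 8.39 and 8.02 at 0 h in pretreated cells and 11.34 and 11.45 at 6 h. The 6 h arrays overlapped, and the difference of responses was -0.37 ± 0.21 (adjusted p = 0.680). Irf1 had -0.84 ± 0.21 (adjusted p = 0.182) and Socs3 -1.22 ± 0.29 (adjusted p = 0.174). Socs3 was lower in pretreated cells at 6 h by the test (-1.39, adjusted p = 0.0150). Nlrc5, the coactivator of MHC class I genes, had -1.06 ± 0.20 (adjusted p = 0.0729), with a 0 h difference of 0.99 (adjusted p = 0.00844). Over all features, other Nlrc5 features passed by limma at -1.47, -1.45 and -1.14 (adjusted p = 0.0155, 0.0358 and 0.0326). Their 0 h differences were 1.14, 1.36 and 0.95, and their 6 h differences -0.33, -0.10 and -0.19.

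Genes of cell division, which fell in naive cells, leaned the other way. All 66 measured genes of mitosis and chromosome segregation fell in naive cells and 63 fell in pretreated cells, against 10.8% and 2.76% of all genes. Of the 66, 63 had a positive difference of responses, with a median of 0.42, none was called and 3 passed with the block. At 6 h 16 of them were called higher in pretreated cells, against 86 (0.431%) of all genes. The list's median difference between pretreated and naive cells was 0.76 at 6 h. At 0 h it was already 0.34 in the 6 h set, with none called, and it was -0.06 in the 3 h set. What part the 0 h arrays of the 6 h set have in the 6 h difference was not tested. Kif20a, a kinesin of cytokinesis, was at 10.84 and 10.74 in naive cells at 0 h, 7.92 and 7.63 at 6 h, 10.68 and 11.16 at 0 h in pretreated cells and 8.85 and 9.43 at 6 h. Both pretreated arrays at 6 h were above both naive ones, and the difference of responses was 1.23 ± 0.28 (adjusted p = 0.147, and 0.0404 with the block). Ccna2, the cyclin of S phase and mitotic entry, had 0.91 ± 0.26 (adjusted p = 0.240) and a 6 h difference of 1.14 (adjusted p = 0.0228). The 23 replication-dependent histone genes had a median of 0.50 with none called and 3 passing with the block, and the 58 DNA replication genes a median of 0.11 with 1 passing with the block. Histone gene copies are near identical, so their values are uncertain as separate measurements.

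Some genes with large responses in naive cells had differences that did not pass, all toward a smaller response after pretreatment. Upp1, which salvages uridine, was at 7.13 and 6.54 in naive cells at 0 h, 12.08 and 11.35 at 6 h, 6.91 and 6.94 at 0 h in pretreated cells and 11.49 and 11.38 at 6 h. It rose in both by 4.88 and 4.51, and the groups overlapped at both times. The difference of responses was -0.37 ± 0.38 (adjusted p = 0.935). S1pr1, a receptor that guides cells out of tissue, fell by 4.304 in naive cells and fell by 3.79 in pretreated cells (0.51 ± 0.26, adjusted p = 0.622). Slc40a1, the iron exporter, fell by 4.39 and fell by 3.46 (0.93 ± 0.45, adjusted p = 0.594). A p-value that misses the threshold does not show that these responses were alike.

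The remaining lists held no called gene. Their median differences were -0.46 for 21 genes of cholesterol biosynthesis and LXR targets, -0.41 for 26 Atf4 targets and one-carbon genes, -0.40 for 12 heat shock genes, -0.24 for 31 glycolysis and hypoxia targets and -0.21 for 32 immediate early genes. Among the immediate early genes Egr2 had -2.14 ± 0.61 (adjusted p = 0.235) with a 6 h difference of -2.45 (adjusted p = 0.0301). The medians were between -0.07 and 0.06 for Toll-like receptors, migration and lipid mediator receptors, iron handling, alternative activation, macrophage identity, and H3.3 with its chaperones. H3f3a, a gene for the tagged kind of histone, was dim at 6.23 to 6.66 on the 8 arrays and differed by -0.21 ± 0.21 (adjusted p = 0.928).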

How the data were processed

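Total RNA was biotin labelled by the Affymetrix protocol for 1-colour mouse gene arrays, per the labels. The authors deposited 1 log2 intensity per feature and array, and these were used without further scaling. How they corrected, normalized and summarised the probes is not stated in the sources used here. Medians lay between 7.15 and 7.23 in the 6 h set and between 6.89 and 7.00 in the 3 h set, which points to separate normalization of the sets, so contrasts stay inside a set or subtract such contrasts. Of 35557 features, 21789 have 1 symbol in the platform annotation, which can be old, 1621 have several and 12147 none. For 999 genes with several features the one with the highest mean was used, which gave 19938 genes.

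A limma fit (3.58.1, R 4.3.3) had 1 mean for each of 8 groups within set over 16 arrays (residual degrees of freedom 8, prior 4.26), with Benjamini-Hochberg adjustment over all genes. It was tested on simulated data. The number of arrays limits the precision. Replicates were numbered in accession order. In the 6 h set these numbers coincide with the half-sets, whose meaning the labels do not give. Named genes came from a rule taking the largest called differences, the largest in each class, up to 4 genes of each of 24 lists and a fixed set, and the text names a subset picked after values were seen, and the genes nearest the threshold. Members and lists were chosen with earlier results of these data known. Alternatives were the 6 h set alone, the half-set as a block, a filter on dim features, the mean of a gene's features, all features, another quantile normalization, a trended and robust eBayes, array weights, a size limit of 1, other class shares and each array left out. Figures used Python 3.11.15 and matplotlib 3.10.9.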

Additional observations from a re-analysis of the deposited data

Results flagged for a closer look

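Among the 4 arrays of a 0 h group over both sets, 1 array stood apart from the other 3 for 5 of the 29 genes by Dixon's ratio of the gap to the range. The ratios were 0.950 for Lpar1 in naive cells, and 0.852 for BC023105, 0.854 for Il18rap, 0.908 for Gm12250 and 0.907 for Csrnp1 in pretreated cells. Chance gives about 1 in 20 such groups where arrays share 1 normalization. These 4 arrays come from sets that seem to have been normalized separately, so that rate need not hold, and 2 groups were examined for each of the 29 genes.

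The 0 h difference of Ifi205 was smaller in the 6 h set than in the 3 h set by the test of the difference (-1.996, adjusted p = 0.0283). Outside the features used as genes, 5 that carry several symbols and 3 with no symbol had a called negative difference of responses over all features. A further 14 with no symbol had a positive one. The 5 include features of Gbp4 with other Gbp genes (-3.38) and of Tgtp1 with Tgtp2 (-2.35 and -2.34). They also include Ifi47 with Olfr56 (-1.45) and C1ra with C1rb (-1.18).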

How the results depend on the processing

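With main counts of 23 lower and 6 higher genes, the 6 h set alone gave 14 and 0, the half-set block 141 and 161, and all features 29 and 18. Leaving out each array gave 4 to 98 lower and 0 to 59 higher, with the spread of a lone array taken from the remaining groups. The highest counts came without naive 6 h replicate 2, and the cause was not tested. The dim filter, the mean of features, quantile normalization, eBayes with trend and robust, array weights and the size limit kept both counts within 1.5 times. All tested values of the 29 genes kept their sign in each alternative. Most alternatives alter the spread or the adjustment rather than the difference, and all reuse the arrays that chose the genes. The kept signs were thus largely fixed in advance. Still called were 12 of the 29 in the 6 h set alone, 29 with the block, 26 after quantile normalization, 28 with trend and robust, 24 with array weights and 22 over all features. Of the 29, 4 were called with any array left out and 2 in none of the 8.

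Class counts under the 6 h set alone were 2 blunted, 0 spared, 0 mixed and 0 with a pretreated response only. The half-set block, added for classes after the data were seen, gave 59 blunted, 55 equal-endpoint, 75 spared, 65 mixed and 11 pretreated only. A share of 1/2 left 0 mixed. With each array left out the ranges were 1 to 72 blunted, 3 to 23 equal-endpoint, 0 to 51 spared, 0 to 5 mixed and 0 to 3 pretreated only. Deviations of arrays in the same half-set correlated at 0.152 to 0.662 in the 6 h set, but labels do not say what the half-sets share. Quantile normalization moved the median of all genes from -0.01 to 0.01.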
